A study of Mus musculus with 12 samples.

Results

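Kupffer cell and macrophage marker genes were examined in whole liver RNA. The members were the 10 gene symbols Clec4f, Vsig4, Marco, Cd5l, Csf1r, Cd68, Lyz2, Timd4, Cd163 and Ly96, each found by its symbol in a table of 23849 genes. Liver RNA-seq came from 12 male C57BL/6J mice, 3 in each of 4 groups. The mice were 8 weeks old at the start, all were fed a high-fat diet (HFD) before and during treatment, and each group was given vehicle or the fiber product labelled Libramed (Policaptil Gel Retard in the study) once daily by oral gavage for 2 weeks. Livers were collected at ZT0 or ZT12, where zeitgeber time (ZT) counts the hours after lights on, so the groups were vehicle at ZT0, vehicle at ZT12, Libramed at ZT0 and Libramed at ZT12. Every mouse carried the diet, so no group was a lean reference, and each liver was a mixture of all its cells. Replicate numbers name different mice of a group.

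Kupffer cells are the resident macrophages of the liver. They sit inside the sinusoids, the liver's small vessels, where they clear bacteria, aged red blood cells and modified lipoproteins from portal blood, and they depend on signals from neighbouring endothelial, stellate and parenchymal cells. Clec4f and Timd4 mark the resident cells, Vsig4 and Marco are receptors that capture particles, Cd5l is a secreted protein of tissue macrophages, and Csf1r, Cd68 and Lyz2 are shared with other macrophages and monocytes.

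Expression was given as FPKM, reads scaled by transcript length and library size, which is a level per length and can be compared between genes. FPKM sums ranged from 634683 to 759355 per library and read totals are unknown, but relative depth, estimated from the spacing of low values, ranged from 0.722 to 1.26. Hepatocyte markers were abundant (Apoa1 at 20220 to 32460 FPKM), while Alb was listed at 0 in all 12 livers. The comparisons used limma on log2(FPKM + 1), a scale that understates the change of low genes, and covered the 9806 genes that averaged 1 FPKM or more. A gene was called at a Benjamini-Hochberg adjusted p under 0.05, and the unadjusted threshold of p under 0.05 is given beside it. In this bulk tissue, fewer cells of a type and less RNA per cell cannot be told apart.

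All 10 members were detected in all 12 livers, and 7 of them reached the minimum for testing. Lyz2, the lysozyme of myeloid cells, was the highest with a mean of 11.7 ± 3.66 FPKM (SD, n = 12). Clec4f followed at 9.04 ± 2.68 FPKM, Cd5l at 8.25 ± 2.77 FPKM and Ly96 at 6.55 ± 2.16 FPKM. Vsig4 (2.75 ± 1.04), Csf1r (2.57 ± 0.564) and Cd68 (2.42 ± 0.917 FPKM) formed a middle tier, while Marco (0.789 ± 0.583), Timd4 (0.463 ± 0.166) and Cd163 (0.413 ± 0.210 FPKM) fell below the minimum and were not tested with the rest. Of the 9 neighbouring pairs in this order, 5 differed within livers by an exact sign-flip permutation test with adjustment over the 9 pairs. The order was taken from the same values, so these p values do not test an order set beforehand. The widest steps were Ly96 over Vsig4, in 12 of 12 livers (adjusted exact p = 0.00440), and Cd68 over Marco, in 11 of 12 livers (adjusted exact p = 0.00440). The 4 pairs that missed the threshold were Cd5l and Ly96 (Cd5l higher in 7 of 12 livers, adjusted exact p = 0.131), Vsig4 and Csf1r (6 of 12, adjusted exact p = 0.761), Csf1r and Cd68 (8 of 12, adjusted exact p = 0.220), and Timd4 and Cd163 (9 of 12, adjusted exact p = 0.126).

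**Figure D1:**
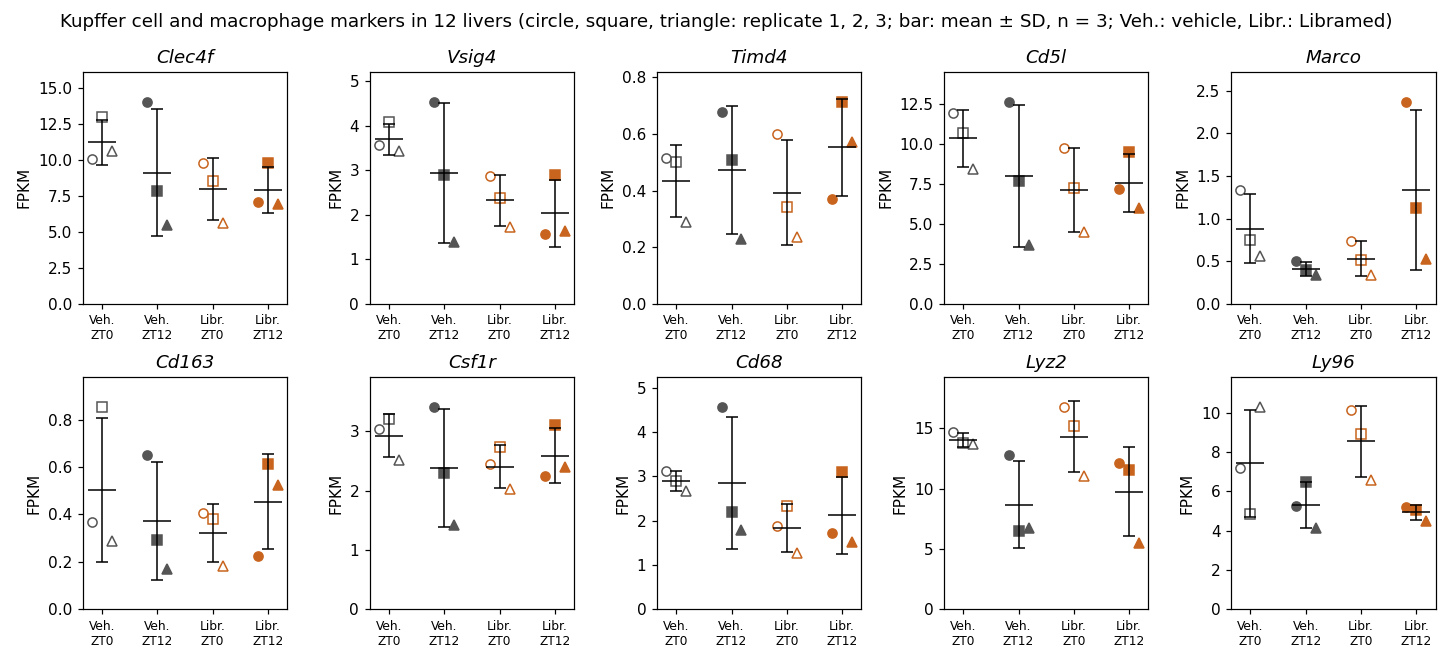
FPKM of each member (y axis, starting at 0) in the 12 livers, by group (x axis). Points are livers, with the marker shape giving the replicate number, and the bar gives mean ± SD over 3 livers. Lyz2 was at 11.0 to 16.8 FPKM in the 6 ZT0 livers and at 5.50 to 12.8 FPKM in the 6 ZT12 livers, and vehicle ZT12 replicate 3 was the lowest liver for 7 of the 10 members.

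Clec4f is a C-type lectin receptor that in mouse is confined to Kupffer cells (mm10 chr6:83644542-83656187, minus strand). It was at 10.04, 12.96 and 10.6 FPKM in the vehicle ZT0 livers, 14.0, 7.82 and 5.48 FPKM in vehicle at ZT12, 9.77, 8.50 and 5.61 FPKM in Libramed at ZT0, and 7.07, 9.74 and 6.90 FPKM in Libramed at ZT12. The vehicle ZT12 livers held both the highest and the lowest value of the 12, and at ZT0 all 3 Libramed livers were below all 3 vehicle livers.

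Vsig4, a complement receptor of resident macrophages (chrX:96247203-96293438, minus strand), was at 3.58, 4.09 and 3.44 FPKM in vehicle at ZT0 and at 4.54, 2.90 and 1.39 FPKM in vehicle at ZT12. With Libramed it was at 2.88, 2.38 and 1.73 FPKM at ZT0 and at 1.56, 2.90 and 1.64 FPKM at ZT12. The extreme livers were those of Clec4f, and the 2 treatments again did not overlap at ZT0.

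Cd5l, also called AIM, binds lipids and apoptotic debris (chr3:87357881-87371073, plus strand). It was at 11.9, 10.7 and 8.41 FPKM in vehicle at ZT0, 12.6, 7.66 and 3.70 FPKM in vehicle at ZT12, 9.71, 7.21 and 4.48 FPKM in Libramed at ZT0, and 7.14, 9.50 and 5.98 FPKM in Libramed at ZT12. All 4 groups overlapped, and vehicle ZT12 replicates 1 and 3 were again the highest and the lowest liver.

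Csf1r is the receptor for the growth factors CSF1 and IL-34, on which macrophages depend. Its exons overlap those of Hmgxb3 on the other strand, and how strand was used in counting is not given in the sources used here. It was at 3.04, 3.21 and 2.52 FPKM in vehicle at ZT0 and at 3.40, 2.30 and 1.42 FPKM in vehicle at ZT12, and with Libramed at 2.45, 2.74 and 2.03 FPKM at ZT0 and 2.25, 3.11 and 2.40 FPKM at ZT12. Csf1r had the narrowest spread of the members, with the highest liver 2.40 times the lowest, and all groups overlapped.

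Cd68, a lysosomal glycoprotein of phagocytes (chr11:69664213-69666153, minus strand), was at 3.12, 2.90 and 2.67 FPKM in vehicle at ZT0 and at 4.56, 2.21 and 1.79 FPKM in vehicle at ZT12. With Libramed it was at 1.88, 2.33 and 1.26 FPKM at ZT0 and at 1.72, 3.11 and 1.51 FPKM at ZT12. At ZT0 every Libramed liver was below every vehicle liver, while at ZT12 the groups overlapped.

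Lyz2 (chr10:117277331-117282321, minus strand) had levels of 14.7, 13.8 and 13.7 FPKM in vehicle at ZT0 and of 12.8, 6.50 and 6.69 FPKM in vehicle at ZT12. With Libramed the levels were 16.8, 15.2 and 11.0 FPKM at ZT0 and 12.2, 11.6 and 5.50 FPKM at ZT12. The vehicle livers did not overlap between the times, while 2 of the Libramed ZT12 livers lay above the lowest Libramed ZT0 liver. Its neighbour Lyz1, named here after its values were seen, is a close copy that shared 24 of 1217 windows of 100 bases with Lyz2 and was listed at 0 to 0.325 FPKM.

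Ly96 encodes MD-2, the protein that holds lipopolysaccharide (LPS) for the receptor TLR4 (chr1:16688051-16709611, plus strand). It was at 7.17, 4.86 and 10.3 FPKM in vehicle at ZT0, 5.27, 6.47 and 4.15 FPKM in vehicle at ZT12, 10.1, 8.92 and 6.59 FPKM in Libramed at ZT0, and 5.20, 5.07 and 4.50 FPKM in Libramed at ZT12. The Libramed livers did not overlap between the times and the vehicle livers did. Tlr4 itself, named after its values were seen, was listed at only 0.0212 to 0.194 FPKM.

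Marco, a scavenger receptor with a collagen-like stalk (chr1:120474538-120505024, minus strand), was at 1.33, 0.748 and 0.558 FPKM in vehicle at ZT0 and at 0.501, 0.400 and 0.339 FPKM in vehicle at ZT12. With Libramed it was at 0.741, 0.509 and 0.333 FPKM at ZT0 and at 2.37, 1.12 and 0.525 FPKM at ZT12. All 3 vehicle livers at ZT12 were below all 3 at ZT0, and the highest Marco liver, Libramed ZT12 replicate 1, was 7.10 times the lowest. That liver was not high for Clec4f, so its ratio of Marco to Clec4f was 0.334, against 0.0358 to 0.133 in the other 11 livers.

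Timd4 encodes TIM-4, a receptor for phosphatidylserine on dying cells (chr11:46810800-46844332, plus strand), and ranged from 0.230 to 0.713 FPKM with all groups overlapping. Cd163, the receptor for haptoglobin-bound haemoglobin (chr6:124304656-124330527, plus strand), ranged from 0.169 to 0.853 FPKM, again with overlap between all groups. Both were lowest in vehicle ZT12 replicate 3, while their highest livers differed, Libramed ZT12 replicate 2 for Timd4 and vehicle ZT0 replicate 2 for Cd163.

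The stretches just upstream of the start are shown for 5 members, because Clec4f, Vsig4, Cd5l and Cd68 varied together from liver to liver and Lyz2 less so. Each is 150 bases upstream of the outermost start in GENCODE or RefSeq, read from RefSeq's GRCm38.p6 sequence and written 5′ to 3′ on the gene's strand. The windows of Clec4f and Lyz2 end 71 and 49 bases before the RefSeq start, since GENCODE places the start of these genes farther upstream. They lie at chr6:83656188-83656337, chrX:96293439-96293588, chr3:87357731-87357880, chr11:69666171-69666320 and chr10:117282322-117282471 in the order below. Capitals mark GAGGAA, a core of sites of the macrophage factor PU.1, and TGCTGA, a motif of MAF factors, each read on both strands, and the E-box CACGTG was also searched.
Clec4f: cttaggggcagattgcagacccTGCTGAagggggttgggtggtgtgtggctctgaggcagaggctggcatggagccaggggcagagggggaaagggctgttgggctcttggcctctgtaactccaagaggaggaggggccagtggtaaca
Vsig4: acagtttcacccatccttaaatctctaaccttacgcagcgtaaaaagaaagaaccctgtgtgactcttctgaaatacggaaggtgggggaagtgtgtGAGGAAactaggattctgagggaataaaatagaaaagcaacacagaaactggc
Cd5l: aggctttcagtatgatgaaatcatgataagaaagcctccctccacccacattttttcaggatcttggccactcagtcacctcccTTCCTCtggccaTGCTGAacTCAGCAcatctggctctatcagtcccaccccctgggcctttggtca
Cd68: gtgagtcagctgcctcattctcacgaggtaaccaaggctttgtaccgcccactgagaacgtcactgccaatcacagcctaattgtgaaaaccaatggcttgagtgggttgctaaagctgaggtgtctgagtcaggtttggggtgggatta
Lyz2: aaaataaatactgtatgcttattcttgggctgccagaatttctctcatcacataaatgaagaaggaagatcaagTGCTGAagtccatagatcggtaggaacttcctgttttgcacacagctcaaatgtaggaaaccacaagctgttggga
Among 8 members with such a window, GAGGAA was present in 3 (Vsig4, Marco and Cd5l), and 14.5% of 32851 RefSeq promoter windows of the same length held it. TGCTGA was present in 4 of 8 (Clec4f, Cd5l, Lyz2 and Timd4), against 10.1% of all windows, which all end at the RefSeq start. With the members' windows moved to that start, TGCTGA was present in 3 of 8, without Clec4f, and the counts of the other motifs did not change. CACGTG was in 0 of 8, against 4.30% of all windows. A match describes letters in a short window only, and no window was shown for Ly96 and Csf1r.

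The members varied widely between mice of the same group. The 4 groups held 12% (Cd163) to 54.5% (Ly96) of the variance of log2(FPKM + 1), with 26.6% for Clec4f, 20.4% for Cd5l, 17.6% for Csf1r and 48.0% for Lyz2. With equal group means the design gives 27.3% on average, and 5 of the 10 members were above that share. Vehicle ZT12 replicate 1 was the highest liver for 5 of the 10 members, and vehicle ZT12 replicate 3, from the same group, was the lowest for 7. Each of vehicle ZT12 replicate 3, Libramed ZT0 replicate 3 and Libramed ZT12 replicate 3 was below its group mean for 7 of the 7 tested members. Vehicle ZT0 replicate 3 was below its group mean for 6 of the 7, all but Ly96. The livers numbered 3 were thus mostly low in all 4 groups, and the cause of this was not tested. In 4 other livers 0 of the 7 were below the group mean, namely vehicle ZT12 replicate 1, Libramed ZT0 replicates 1 and 2, and Libramed ZT12 replicate 2. The relative depths of the most extreme livers were 0.992 (vehicle ZT12 replicate 1) and 1.17 (vehicle ZT12 replicate 3), and the part of depth or tissue sampling was not tested.

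**Figure D2:**
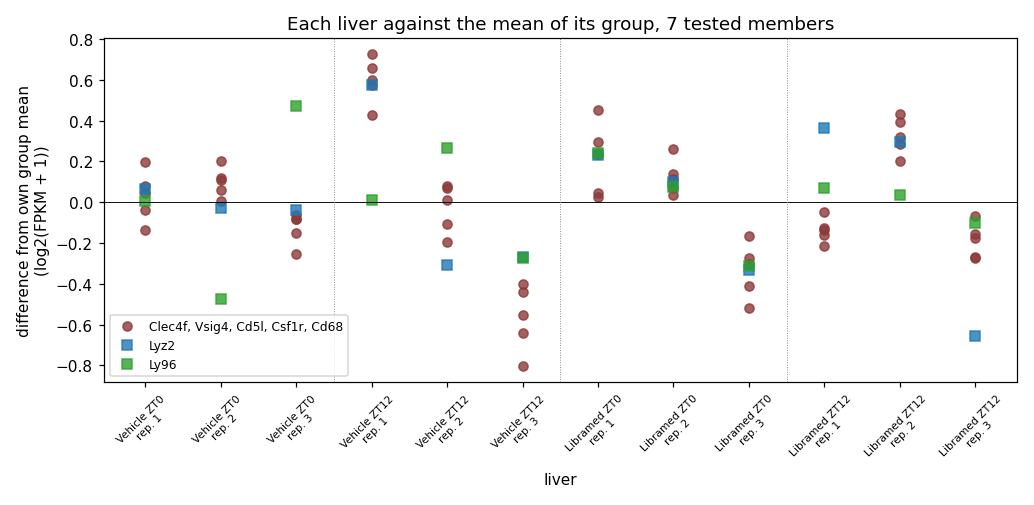
Deviation of each tested member from the mean of its own group (y axis, log2(FPKM + 1)) in each of the 12 livers (x axis). Each point is a member, coloured as Lyz2, Ly96 or the other 5 members. In the livers numbered 3 with vehicle at ZT12, Libramed at ZT0 and Libramed at ZT12, the points of all 7 members lie below 0. In the liver numbered 3 with vehicle at ZT0, those of 6 of the 7 do.

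Whether the members rise and fall together was asked over the 12 livers after the group means were removed. For Clec4f and Vsig4, Pearson r was 0.953 (exact permutation p = 0.00309, adjusted over 21 pairs 0.0324, n = 12) and Spearman's rho 0.930 (exact permutation p = 0.00309). Without the 2 livers farthest from the median of Clec4f, vehicle ZT12 replicate 3 and Libramed ZT0 replicate 3, r was 0.932. Of the 21 pairs of the 7 tested members, 10 had an adjusted exact permutation p under 0.05, and these were the 10 pairs among Clec4f, Vsig4, Cd5l, Csf1r and Cd68. Their r ranged from 0.849 to 0.953 with a median of 0.910. Both members of a pair were read from the same library, so anything that scales a whole library moves them together. Pairs of other genes were not examined, so no share over all genes can be set beside these counts.

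Lyz2 and Ly96 were less tied to these 5 members. The 6 pairs with Lyz2 had r from 0.263 to 0.780, and the highest, with Cd68, had rho 0.783 (exact permutation p for r = 0.0447, adjusted 0.0824; for rho 0.0363, adjusted 0.0692; r without 2 livers 0.647). The 6 pairs with Ly96 had r from 0.125 to 0.338, of which the highest, with Cd5l, had rho 0.378 (exact permutation p for r = 0.316, adjusted 0.390; for rho 0.279, adjusted 0.345; r without 2 livers −0.067). With 1 liver left out and fewer arrangements, 0 to 10 pairs passed and the median r of the 21 pairs ranged from 0.617, without vehicle ZT12 replicate 1, to 0.858, without Libramed ZT12 replicate 1. No pair passed without any 1 of the 3 vehicle ZT12 livers, of the 3 Libramed ZT12 livers or Libramed ZT0 replicate 3. The calls thus depended on which liver was left out. Fewer arrangements also raise the smallest p that can be reached, so these counts do not show how far r itself depends on single livers.

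**Figure D3:**
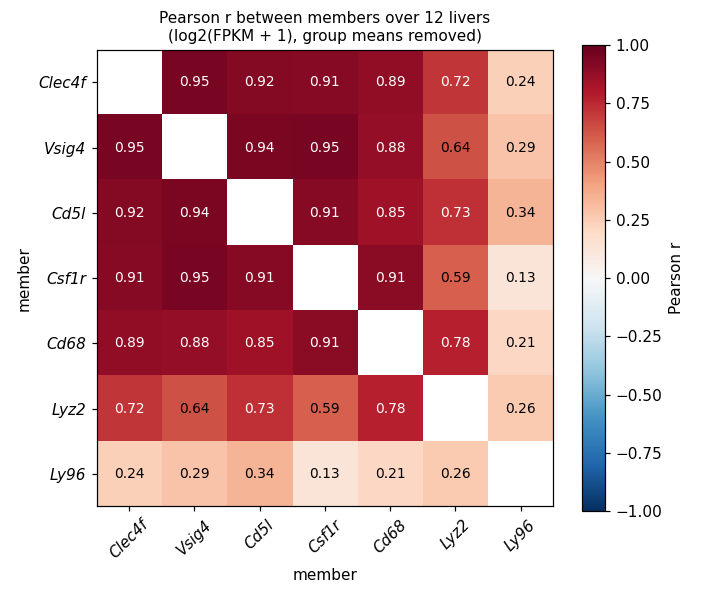
Pearson r of log2(FPKM + 1) between the 7 tested members over 12 livers, with group means removed. Colour and printed values give r for each pair of members on the axes. The 10 pairs among Clec4f, Vsig4, Cd5l, Csf1r and Cd68 range from 0.849 to 0.953, and the Ly96 row from 0.125 to 0.338.

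ZT12 was compared with ZT0 to ask how the markers differ between the start and the end of the active phase. Over both treatments Lyz2 was lower at ZT12, with 14.2 ± 1.91 FPKM at ZT0 and 9.20 ± 3.31 FPKM at ZT12 (SD, n = 6 each; log2 fold change −0.63 ± 0.19 SE, limma adjusted p = 0.0286). Ly96 was lower as well, with 7.99 ± 2.15 FPKM at ZT0 and 5.11 ± 0.796 FPKM at ZT12 (log2 fold change −0.53 ± 0.16, limma adjusted p = 0.0223). By exact permutation within each treatment, p was 0.025 for both (400 arrangements, smallest possible p 0.005). These were 2 of 7 members called, both lower, where 13.8% of all genes tested were called lower and 29.7% were called in either direction. The share of members called in either direction was thus near that of all genes. The median log2 fold change of the 7 was −0.18, with 1 higher and 6 lower, against 0.0078 for all genes. Each call depended on the set of mice: the limma adjusted p of Lyz2 was 0.0508 to 0.0667 without any 1 of vehicle ZT0 replicates 1 and 3, vehicle ZT12 replicates 2 and 3, Libramed ZT0 replicates 1 and 2 and Libramed ZT12 replicate 3. That of Ly96 was 0.0503 to 0.0517 without any 1 of vehicle ZT12 replicate 3, Libramed ZT0 replicates 1 and 2 and Libramed ZT12 replicate 3.

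The other 5 tested members were not called by time over both treatments. Clec4f had a log2 fold change of −0.17 ± 0.19 (limma adjusted p = 0.540), Vsig4 of −0.24 ± 0.18 (adjusted p = 0.352), Cd5l of −0.18 ± 0.25 (adjusted p = 0.640), Csf1r of −0.092 ± 0.14 (adjusted p = 0.656) and Cd68 of 0.021 ± 0.17 (adjusted p = 0.941).

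Within vehicle, the 7 members all had lower means at ZT12, with a median log2 fold change of −0.35 against 0.0078 for all genes, but limma called 0 of 7, where 10.4% of all genes were called. Lyz2 alone had an unadjusted p under 0.05 (log2 fold change −0.70 ± 0.23, unadjusted p = 0.0195, limma adjusted p = 0.105), a threshold met by 27.4% of all genes. It was also the only tested member whose groups did not overlap, which held for 33.2% of all genes. Vehicle ZT12 replicate 1, the liver with the highest Clec4f, Vsig4, Cd5l, Csf1r and Cd68, weighed on this comparison. Without it 6 of 7 members had p under 0.05, and Lyz2 was called (log2 fold change −0.99, limma adjusted p = 0.0115). The share of all genes is not given for fits with 1 library left out, here or below. Such counts therefore do not show a change particular to the members. Without vehicle ZT0 replicate 1, vehicle ZT12 replicate 2 or vehicle ZT12 replicate 3, 0 of 7 had p under 0.05, and without vehicle ZT0 replicate 2 there were 2. The exact permutation test of 3 mice against 3 has 20 arrangements and cannot give a p below 0.1, the value it gave for Lyz2 and Marco.

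Within Libramed, Ly96 was the 1 member called of 7 (log2 fold change −0.67 ± 0.15, limma adjusted p = 0.0291), with mean levels of 8.55 ± 1.80 FPKM at ZT0 and 4.92 ± 0.370 FPKM at ZT12 (SD, n = 3). In this comparison 12.4% of all genes were called and 5.36% were called lower, and the groups of 34.9% did not overlap, as did those of Ly96 alone among the 7. The call was lost without any 1 library but Libramed ZT0 replicate 3 (limma adjusted p from 0.0549 to 0.0920). Lyz2 had a log2 fold change of −0.56 ± 0.28 (limma adjusted p = 0.246). The other members were near their ZT0 levels, with log2 fold changes of 0.0061 ± 0.20 for Clec4f, −0.15 ± 0.20 for Vsig4, 0.10 ± 0.26 for Cd5l, 0.073 ± 0.13 for Csf1r and 0.13 ± 0.22 for Cd68 (limma adjusted p from 0.676 to 0.989).

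**Figure D4:**
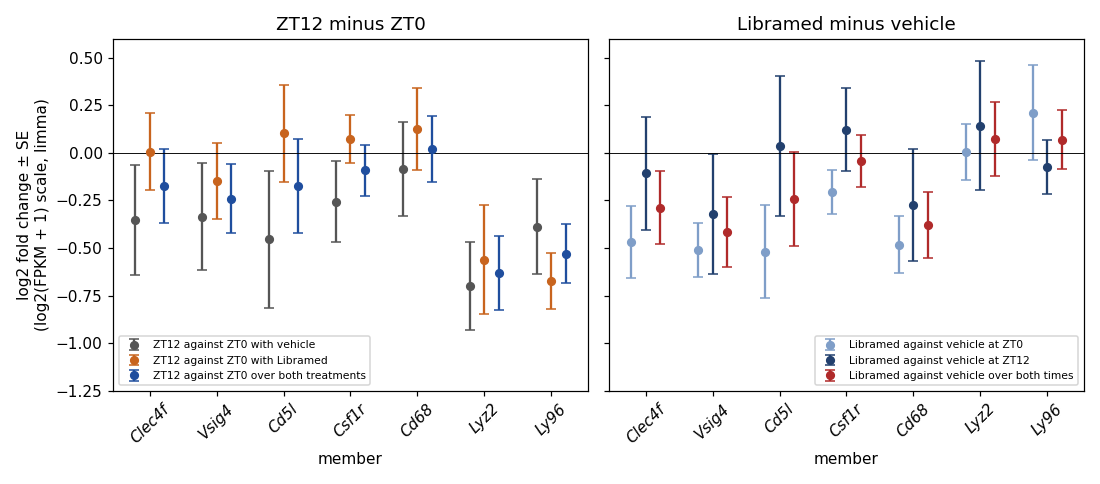
Log2 fold changes of the 7 tested members (y axis, log2(FPKM + 1) scale) from limma, with ZT12 minus ZT0 on the left and Libramed minus vehicle on the right. Points are estimates and bars are ± SE, from 6 livers for comparisons within a time or treatment and 12 for those over both. Lyz2 and Ly96 lie at −0.63 and −0.53 for time over both treatments, and Clec4f, Vsig4 and Cd68 lie at −0.47 to −0.51 for Libramed at ZT0.

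Libramed was compared with vehicle at ZT0 to ask whether the product went with a different level of the markers at the end of the active phase. Clec4f, Vsig4 and Cd68 each had lower values in all 3 Libramed livers than in all 3 vehicle livers. Vsig4 was at 2.33 ± 0.576 against 3.70 ± 0.344 FPKM (SD, n = 3; log2 fold change −0.51 ± 0.14, unadjusted p = 0.00829, limma adjusted p = 0.454). Cd68 was at 1.82 ± 0.541 against 2.90 ± 0.224 FPKM (log2 fold change −0.48 ± 0.15, unadjusted p = 0.0141, limma adjusted p = 0.482). Clec4f was at 7.96 ± 2.13 against 11.2 ± 1.55 FPKM (log2 fold change −0.47 ± 0.19, unadjusted p = 0.0433, limma adjusted p = 0.538). By limma 0 of 7 members were called and 0.00% of all genes were, so none of these differences passed the adjusted threshold, and the exact permutation p of each was 0.1, the smallest possible.

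At the unadjusted threshold 3 of 7 members were lower and 0 higher, where 5.81% of all genes were lower and 9.23% passed in either direction. The groups of the same 3 members did not overlap, against 15.1% of all genes and 9.94% with Libramed lower. The 3 are not independent, since they varied together between mice with r from 0.882 to 0.953. Cd5l had a log2 fold change of −0.52 ± 0.24 (limma adjusted p = 0.590) and Csf1r of −0.21 ± 0.12 (adjusted p = 0.644), while Lyz2 was at 0.0051 ± 0.15 (adjusted p = 0.994) and Ly96 at 0.21 ± 0.25 (adjusted p = 0.830). The median of the 7 was −0.47, against −0.020 for all genes. The ratio of Lyz2 to Clec4f was 1.71 to 1.96 in the Libramed ZT0 livers and 1.06 to 1.47 in the vehicle ZT0 livers, values given as a description because the pair was picked after they were seen. In a single fit of all 12 livers, whose spread includes that of the vehicle ZT12 group, 0 of 7 members had p under 0.05.

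At ZT12 none of the 7 tested members separated the treatments. By limma 0 of 7 were called, as for all genes (0.00%), and 0 of 7 had an unadjusted p under 0.05, against 6.74% of all genes. The log2 fold changes ran from −0.32 ± 0.31 for Vsig4 to 0.14 ± 0.34 for Lyz2, with a median of −0.072, and SEs were 0.14 to 0.37. Without vehicle ZT12 replicate 3, 1 member had p under 0.05, with no share of all genes given for that fit. Outside the tested members, Marco was higher in all 3 Libramed livers than in all 3 vehicle livers at this time (1.34 ± 0.939 against 0.413 ± 0.0819 FPKM, exact permutation p = 0.1, the smallest possible), where the groups of 13.1% of the genes tested did not overlap.

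Over both times, limma called 0 of 7 members between Libramed and vehicle, with 0.0204% of all genes called. Vsig4 was at 2.18 ± 0.621 FPKM with Libramed and 3.32 ± 1.10 FPKM with vehicle (SD, n = 6; log2 fold change −0.42 ± 0.18, unadjusted p = 0.0410, limma adjusted p = 0.476, exact permutation p = 0.075). It was the 1 member with an unadjusted p under 0.05, a threshold passed by 10.1% of all genes and by 6.28% with Libramed lower. Cd68 had a log2 fold change of −0.38 ± 0.17 (limma adjusted p = 0.493, exact permutation p = 0.095) and Clec4f of −0.29 ± 0.19 (limma adjusted p = 0.623, exact permutation p = 0.220). The number of members with p under 0.05 was 4 without vehicle ZT12 replicate 3 and 2 without Libramed ZT12 replicate 2. It was 0 without any 1 of the 3 vehicle ZT0 livers, vehicle ZT12 replicate 1, Libramed ZT0 replicate 3 and Libramed ZT12 replicates 1 and 3. No share of all genes is given beside these counts.

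The interaction of time and treatment tests whether the change over time differed between the treatments. By limma 0 of 7 members were called (0.00% of all genes) and 0 of 7 had an unadjusted p under 0.05 (6.63% of all genes). The largest estimate among them was 0.56 ± 0.49 for Cd5l (limma adjusted p = 0.874), and the 2 members lower at ZT12 had 0.14 ± 0.40 (Lyz2, adjusted p = 0.970) and −0.28 ± 0.31 (Ly96, adjusted p = 0.907), so a difference between treatments in their change over time was not detectable. With vehicle ZT12 replicate 1 left out, 2 members had p under 0.05, with no share of all genes given for that fit. Among the members too low for the main test, Marco had an interaction of 0.94 ± 0.36 in a fit with no minimum level (unadjusted p = 0.0251, limma adjusted p = 0.758, exact permutation p = 0.02 with no adjustment for the 10 members examined). The permutation moved treatment labels within each time, so the exact p does not test the interaction alone.

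Other genes of the same cells were read from the same livers as the members and are not independent of them. Their lists were chosen with earlier results of these data known. Of 13 general macrophage genes tested, 12 had lower means with Libramed at ZT0, as had 5389 of all 9806 genes. The median log2 fold change of the 13 was −0.32, with 0 called by limma. Of these, 5 had an unadjusted p under 0.05, namely C1qa, C1qb, Ctss, Fcer1g and Mpeg1, of which the last 4 are named after their values were seen, and all 5 were lower, as were 5.81% of all genes at this threshold. C1qa, a chain of complement C1q that Kupffer cells make in quantity, was at 16.5, 15.7 and 14.8 FPKM in vehicle at ZT0 and at 11.9, 12.6 and 8.98 FPKM with Libramed at ZT0 (log2 fold change −0.47 ± 0.13, limma adjusted p = 0.459). At ZT12 it was at 18.7, 11.1 and 7.94 FPKM with vehicle and at 13.6, 14.5 and 9.05 FPKM with Libramed, so that vehicle ZT12 replicates 1 and 3 were its highest and lowest livers as they were for Clec4f. At ZT12, 9 of the 13 were higher and 4 lower with Libramed (median 0.062, 0 called and 1 with an unadjusted p under 0.05). That unadjusted threshold was passed by 6.74% of all genes.

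By limma 2 of 13 were called higher at ZT12 over both treatments and 2 lower, with a median of −0.23, while 15.9% of all genes were called higher, 13.8% lower and 29.7% in either direction, so the share called was near that of all genes. Mertk, a receptor for the engulfment of dying cells, rose by a log2 fold change of 0.23 ± 0.079 (limma adjusted p = 0.0428). Tyrobp, the adaptor DAP12, was lower at ZT12 (log2 fold change −0.62 ± 0.16, limma adjusted p = 0.0128), as was the mannose receptor Mrc1 (−0.47 ± 0.12, limma adjusted p = 0.0110), which sinusoidal endothelial cells also express.

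Among 9 other Kupffer cell genes tested, 1 was called higher over both treatments at ZT12 and 0 lower (median −0.16), against 15.9% and 13.8% of all genes. That gene was Slc40a1, the iron exporter ferroportin (log2 fold change 0.49 ± 0.15, limma adjusted p = 0.0263). With Libramed at ZT0, 3 of the 9 had higher and 6 lower means (median −0.098, 0 called by limma and 1 with an unadjusted p under 0.05). That unadjusted threshold was passed by 9.23% of all genes. Id3, a regulator of Kupffer cell identity that other liver cells also express, had log2 fold changes of −0.49 ± 0.33 for ZT12 (limma adjusted p = 0.292) and −0.19 ± 0.23 for Libramed at ZT0 (limma adjusted p = 0.840). Of 5 recruited and lipid-associated macrophage genes tested, 1 was called lower at ZT12 over both treatments (median −0.13), against 13.8% of all genes. This was the tetraspanin Cd9, at 11.2 to 20.1 FPKM in vehicle at ZT0, 4.10 to 6.18 FPKM in vehicle at ZT12, 10.1 to 17.7 FPKM in Libramed at ZT0 and 4.75 to 6.09 FPKM in Libramed at ZT12 (log2 fold change −1.34 ± 0.16, limma adjusted p = 8.73e-05). Many liver cells express Cd9.

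The LPS receptor pathway, to which Ly96 belongs, had 7 other genes tested, of which 3 were called lower and 0 higher at ZT12 over both treatments (median −0.12), where 13.8% of all genes were called lower. Ticam1, the adaptor TRIF, had a log2 fold change of −0.50 ± 0.078 (limma adjusted p = 0.000616), Tirap of −0.27 ± 0.078 (limma adjusted p = 0.0231) and Lbp, the LPS carrier made by hepatocytes, of −0.47 ± 0.15 (limma adjusted p = 0.0284). With Libramed at ZT0 all 7 had lower means, as had 5389 of all 9806 genes. The median of the 7 was −0.24, with 0 called by limma. An unadjusted p under 0.05 was reached by 2, both lower, against 5.81% of all genes. Lbp had a log2 fold change of −0.49 ± 0.15 with Libramed over both times (unadjusted p = 0.00577, limma adjusted p = 0.358). Of 5 genes for CSF1 receptor ligands and niche signals, 1 was called, Gdf2, which encodes BMP9 from stellate cells and was lower at ZT12 (log2 fold change −0.57 ± 0.11, limma adjusted p = 0.00243). The share of all genes called lower was 13.8%. Csf1 had log2 fold changes of 0.050 ± 0.16 for time and −0.069 ± 0.16 for Libramed over both times (limma adjusted p = 0.839 and 0.902). Of 6 genes of haemoglobin and haem handling, the system that Cd163 feeds, 2 were called higher at ZT12 over both treatments, against 15.9% of all genes. These were Slc40a1, already counted among the other Kupffer cell genes, and the biliverdin reductase Blvrb (log2 fold change 0.36 ± 0.081, limma adjusted p = 0.00593). Within vehicle 1 of the 6 was called higher and 1 lower, where 10.4% of all genes were called in either direction.

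Markers of some other cells were called by the time of day, and those of others were not. All 8 endothelial markers tested were called lower at ZT12 over both treatments (median log2 fold change −0.51), against 13.8% of all genes, and the summed FPKM of the 9 listed was 48.0 to 61.4 in vehicle at ZT0, 25.3 to 40.7 in vehicle at ZT12, 64.0 to 74.2 in Libramed at ZT0 and 42.4 to 44.4 in Libramed at ZT12. Of 8 stellate cell markers tested, 6 were called lower (median −0.49). For neutrophils, which also make lysozyme, 2 of 10 markers were tested and 0 were called, and the summed FPKM of the 9 in the table was 1.05 to 10.8 in vehicle at ZT0, 0.731 to 3.33 in vehicle at ZT12, 6.46 to 11.4 in Libramed at ZT0 and 2.50 to 19.2 in Libramed at ZT12. B cell (0.278 to 2.34 summed FPKM over all livers) and dendritic cell markers (0.653 to 1.19) were too low to test, and 1 of 9 T and NK cell markers was tested and not called. By limma, 2 of 8 hepatocyte and 2 of 2 tested fat cell markers were called higher at ZT12, against 15.9% of all genes. The 2 fat cell genes were Plin4 and Cfd. Of the 5 listed, only these averaged 1 FPKM or more, and Adipoq was at 0 to 0.049 FPKM. Of 3 cholangiocyte markers 1 was called lower, against 13.8% of all genes. Of 2 red blood cell markers 0 were called in either direction, against 29.7%. The part of these cells in the levels of Lyz2 and Ly96 was not tested.

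At ZT0, where Clec4f, Vsig4 and Cd68 had lower values with Libramed, 7 of 8 endothelial and all 8 stellate cell markers had higher means with Libramed. Of all 9806 genes, 4412 had higher means. The medians of the 2 lists were 0.22 and 0.24, with 0 called by limma. An unadjusted p under 0.05 was reached by 4 and 1 of them, all higher, against 3.42% of all genes. The genes outside all lists whose profile was most like the mean standardised level of the 7 tested members over the 12 livers were Fcgr3 (Pearson r 0.894, 0.735 to 2.10 FPKM), Tmem125 (0.878, 4.23 to 7.53 FPKM), Ptgs1 (0.863, 0.981 to 2.17 FPKM), Snupn (0.861, 3.39 to 5.43 FPKM) and a line that names Gm20605, Lrch4 and Sap25 together (0.851, 4.80 to 7.31 FPKM). Fcgr3 encodes an antibody Fc receptor of myeloid cells and Ptgs1 cyclooxygenase 1. These r values describe the same 12 libraries, groups included, and carry no test.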

How the data were processed

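The authors sequenced poly(A) liver RNA from single mice (biological replicates) and deposited 1 table of FPKM per gene for the 12 samples. The methods describe 100-base single-end reads, ELAND on mm10 with unique matches only, and a stranded kit, while the submitters' notes name TopHat and Cuffnorm and the labels another kit. The methods call the unit RPKM. No counts or read totals were used, so counting error is unknown.

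Of 24138 lines, 289 repeats of a symbol were dropped. Groups came from the labels. R 4.3.3 and limma 3.58.1 (lmFit, eBayes with trend, two-sided, pseudocount 1, mean of at least 1 FPKM) gave 7 comparisons. Single members were compared by exact permutation, pairs by 1296 arrangements within groups. The calculations were tested on simulated data. Annotation was GENCODE vM21. All 10 members are named, and genes of 16 other lists if adjusted p was under 0.05 in a comparison or as the 3 highest of a list, with the 5 genes most like the members. The values of 1 list gene are not reported here. The members and lists were chosen with earlier results of these data known. Alternatives were a pseudocount of 0.1, no minimum, a minimum of 5 FPKM, median-ratio scaling, quantile normalization, no trend, a single fit, a replicate block and each library left out.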

Additional observations from a re-analysis of the deposited data

Results flagged for a closer look

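The estimated change of Marco between ZT0 and ZT12 had opposite signs in vehicle and Libramed. The interaction was 0.94 on the log2(FPKM + 1) scale (exact permutation p = 0.02, smallest possible 0.005). Treatment labels were permuted within each time, which assumes no treatment effect at either time, so this p does not test the interaction alone. With vehicle the mean level of Marco was 0.879 FPKM at ZT0 against 0.413 FPKM at ZT12. With Libramed these means were 0.528 FPKM and 1.34 FPKM. It was the 1 of 10 members for which this test passed 0.05, with no adjustment for the number tested, and in a limma fit of all genes with no minimum level its adjusted p was 0.758. Marco was below 1 FPKM in 9 of the 12 livers, and Libramed ZT12 replicate 1 was the highest at 2.37 FPKM. Without that liver the Libramed mean at ZT12 was 0.823 FPKM and the interaction 0.64 (exact permutation p = 0.025). With each of the 12 livers left out in turn, a check chosen after the values were seen, the interaction was 0.64 to 1.21 and its exact permutation p 0.01 to 0.07, and p was not under 0.05 for 6 of the 12. Leaving out a liver cut the arrangements from 400 to 200, so p can rise where the interaction does not shrink. Without vehicle ZT12 replicate 1, for example, the interaction was 0.98 and its exact permutation p 0.055.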

How the results depend on the processing

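With 3 mice a group and no counts, differences within the spread of mice were not detectable. The number of members called by limma was 0 with vehicle, 1 with Libramed and 2 over both treatments for ZT12 against ZT0. It was 0 for Libramed under no minimum FPKM (Ly96 adjusted p = 0.0880) and in a single fit of 12 samples (0.0636), and 1 over both treatments under no minimum FPKM (Lyz2 adjusted p = 0.0560), with more genes tested in the fits without a minimum. With 1 library left out it was 0 to 1 with vehicle, 0 to 1 with Libramed and 0 to 2 over both treatments, and 0 in every treatment and interaction fit. The number of correlated pairs was 0 to 10 and the cause was not tested. Same-number correlations gave no sign that replicate numbers pair the mice (4 of 18 over 0.1, range −0.279 to 0.341). The tested members were nevertheless mostly low in the livers numbered 3 of all 4 groups. With the replicate block the members called stayed at 0, 1 and 2 over time and at 0 elsewhere. Of all genes, 279 were called with vehicle under the block and 709 with Libramed, against 1020 and 1212 without it. No minimum FPKM gave 515 and 639, and a single fit gave 1539 with vehicle. For Libramed over both times 2 genes were called, and 0 under median-ratio scaling, quantile normalization or the block. Members with an unadjusted p under 0.05 went from 1 to 2 with Libramed over time under the block. For Libramed at ZT0 they went from 3 to 4 under the block, 2 under no minimum, median-ratio scaling or quantile normalization, and 0 in a single fit. Over both times they went from 1 to 2 (pseudocount 0.1, block) or 0 (no minimum, quantile normalization), and for the interaction from 0 to 1 under no minimum. A minimum of 5 FPKM left Vsig4, Csf1r and Cd68 untested, so its counts of 1 at ZT0 and 0 over both times say nothing of stability.

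Of the alternatives other than leaving out a library, 1 reversed a member: Clec4f for ZT12 against ZT0 with Libramed was −0.023 under quantile normalization. With 1 library left out, log2 fold changes that changed sign ranged as follows. For ZT12 against ZT0 with vehicle, Cd68 ran from −0.38 to 0.12. With Libramed, Clec4f ran from −0.20 to 0.15, Cd5l from −0.16 to 0.33, Csf1r from −0.029 to 0.14 and Cd68 from −0.091 to 0.26, and over both treatments Cd5l from −0.32 to 0.035, Csf1r from −0.17 to 0.024 and Cd68 from −0.10 to 0.12. For Libramed at ZT0, Lyz2 ran from −0.11 to 0.17 and Ly96 from −0.026 to 0.45. At ZT12, Clec4f ran from −0.38 to 0.22, Cd5l from −0.37 to 0.40, Csf1r from −0.10 to 0.34, Cd68 from −0.49 to 0.025, Lyz2 from −0.037 to 0.47 and Ly96 from −0.21 to 0.059. Over both times, Csf1r ran from −0.16 to 0.035, Lyz2 from −0.014 to 0.21 and Ly96 from −0.052 to 0.16. For the interaction, Vsig4 ran from −0.13 to 0.47, Cd68 from −0.0077 to 0.51 and Lyz2 from −0.043 to 0.47.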
